A study of Mus musculus with 384 samples.

Results

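The genes of the fibrillar collagens and of the enzymes that fold, modify and cross-link them were followed well by well in single cells of mouse kidney. The 10 genes were chosen by name: the chains Col1a1, Col1a2, Col3a1, Col5a1 and Col5a2, the collagen chaperone gene Serpinh1, the lysyl hydroxylase gene Plod2 and the lysyl oxidase genes Lox, Loxl1 and Loxl2. All 10 were among the 40594 genes listed for both batches, and all 10 passed the minimum of 1 CPM (reads per 1000000 reads on genes) on average over the plates.

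Type I collagen, built from the chains encoded by Col1a1 and Col1a2, and type III collagen, built from Col3a1 alone, form most of the scar matrix of a fibrotic kidney, and type V collagen (Col5a1 and Col5a2) is incorporated in small amounts and helps to start fibrils. Inside the cell, the chaperone encoded by Serpinh1 binds the folded helix and the enzyme encoded by Plod2 hydroxylates lysines at the ends of the chains. Outside the cell, the lysyl oxidases encoded by Lox, Loxl1 and Loxl2 oxidise lysines so that neighbouring molecules become cross-linked.

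Cells came from kidneys of mice aged 8 weeks and were sorted 1 per well from 2 gates, PDGFRB+CD45- (here CD45-) and PDGFRB+CD45+ (here CD45+). PDGFRB is a growth factor receptor of fibroblasts and pericytes, and CD45, encoded by Ptprc, is a surface phosphatase of leukocytes. Each gate was sorted into 1 plate of 96 wells in each of 2 batches, in a study of what monocytes contribute to kidney myofibroblasts. UUO stands in the well names of all 4 plates without being written out, and the labels name no strain, genotype, control kidney or animal. Each plate therefore counts as 1 sample, and no p-value was computed, because the wells of a plate are not replicates of a condition.

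Wells of at least 50000 reads were used, 315 of 384 in all: 79 (batch 1) and 82 (batch 2) from the CD45- gate, and 76 and 78 from the CD45+ gate. Wells held 5323 to 1246070 reads. A list of 8 leukocyte genes summed to 158 and 456 CPM over CD45- wells and to 29089 and 25091 CPM over CD45+ wells, and Ptprc to 0.138 and 0.951 against 471 and 291 CPM. Pdgfrb transcripts were at 292 and 218 CPM in the CD45- gate but at 0.115 and 5.75 CPM in the CD45+ gate, where 1 well held 93.2% of the batch 2 reads, so the RNA of the CD45+ wells did not show the receptor that defined their gate. A list of 8 fibroblast genes summed to 8604 and 8265 CPM against 85.4 and 1040 CPM. A list of 5 red blood cell genes was also higher in the CD45- plates, at 13000.3 and 2633 CPM against 17.5 and 19.2 CPM. Its part in the results was not tested.

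Wells under 50000 reads, which held 0.687% to 1.49% of a plate's reads, also held collagen reads. Whether such a well held a cell was not tested: 1 shallow CD45+ well of batch 2 had 382 Ptprc reads, and the median shallow CD45- well had more CPM of Col1a1 than the median deep one (2818 against 1265 CPM in batch 1). In the CD45- plates, Col1a1 had 15 to 138 reads in each of 17 such wells of batch 1 and 11 to 139 reads in each of 14 of batch 2. In the CD45+ plates the 20 shallow wells of batch 1 had 0 to 22 Col1a1 reads and the 18 of batch 2 had 1 to 41. A few reads of a collagen in a deep well were thus no more than shallow wells of the same plate held. Of the deep CD45- wells, 37 of 79 and 36 of 82 held more reads of Col1a1, Col1a2 and Col3a1 than any shallow well of their plate. Of the deep CD45+ wells, 4 of 76 and 1 of 78 did.

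The transcripts of Col1a1, Col1a2 and Col3a1 were far higher in the CD45- plates, 14.1-fold to 23.5-fold in batch 1 and 5.43-fold to 8.50-fold in batch 2. Of all 12869 genes of at least 1 CPM, 13% were at least 4-fold higher in the CD45- plate in both batches and 4.26% in the CD45+ plate. Of the 10 members, 8 were higher in CD45-, none in CD45+, and Col5a1 and Plod2 were below 4-fold in at least 1 batch. All 10 ratios were below 0 in both batches, on the scale log2(CPM + 1), CD45+ over CD45-, as were 59.8% and 63.1% of all genes tested. The median of the members was -3.88 and -3.05, beside -0.40 and -0.56 over all genes tested. TMM scaling, which brought the median of all genes to -0.10 and -0.08, left 6 of the 10 members at 4-fold in both batches, beside 10.5% of all genes, because Col1a1 and Col3a1 came to -1.88 in batch 2 (both to 2 decimals).

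**Figure D1:**
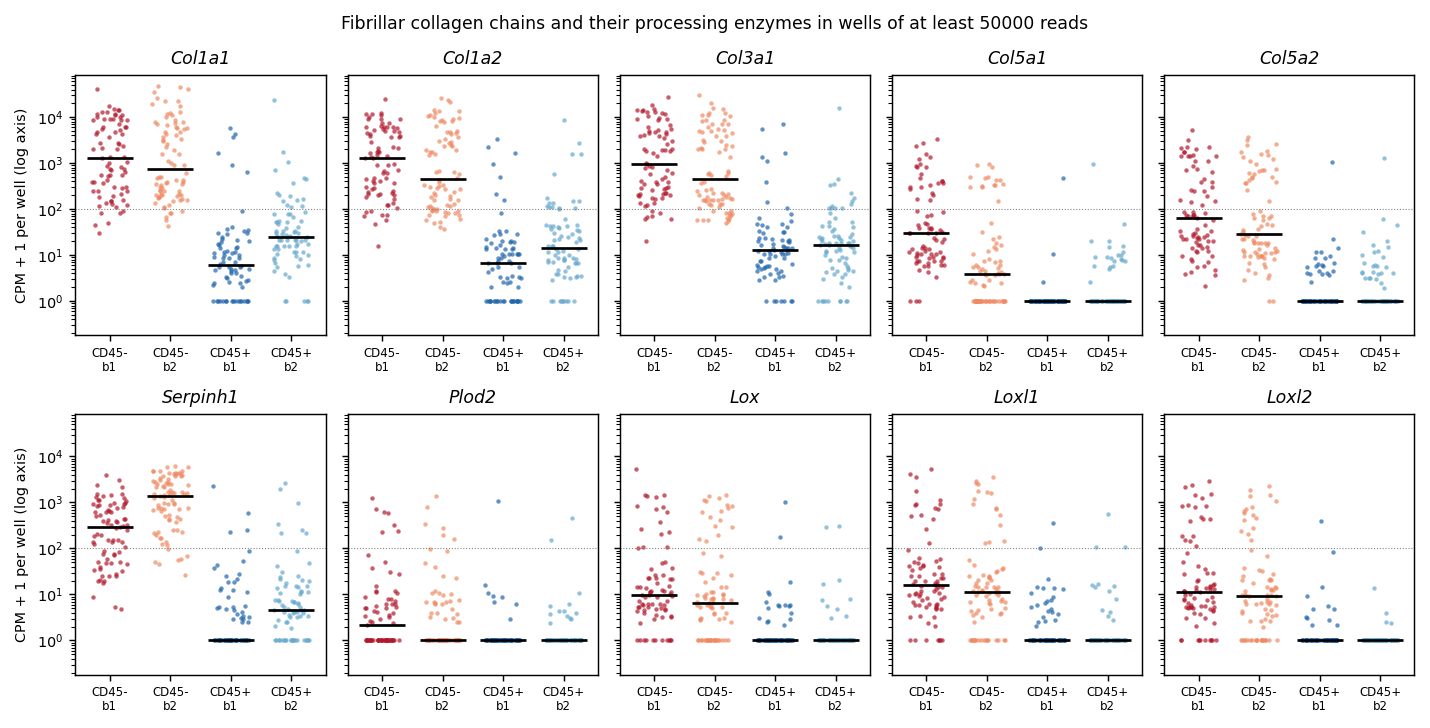
CPM + 1 of each of the 10 genes in every well of at least 50000 reads (points, log axis), by gate and batch (b1, b2); black bars are medians and the dotted line marks 100 CPM. The CD45- wells of Col1a1, Col1a2 and Col3a1 reach from under 100 CPM to at least 25357 CPM, while most CD45+ wells lie below 100 CPM and a few lie far above their plate's median.

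Col1a1 stood at 4907 and 6042 CPM of summed CD45- reads and at 236 and 1108 CPM of summed CD45+ reads, 20.7-fold and 5.45-fold lower. Single CD45- wells ran from 29.5 to 40771 CPM with a median of 1265 in batch 1, and from 42.8 to 46760 CPM with a median of 751 in batch 2. The CD45+ wells had medians of 5.03 and 24.3 CPM, with maxima of 5787 and 23586 CPM. The ranges of the gates overlapped, but 73 of 79 and 76 of 82 CD45- wells reached 100 CPM against 6 of 76 and 16 of 78 CD45+ wells. A single CD45+ well of batch 2, replicate 18, held 94.1% of that plate's Col1a1 reads, and without it the plate stood at 68.8 CPM and the log2 ratio moved from -2.45 to -6.44. In batch 1, leaving out replicate 5 moved it from -4.37 to -5.23.

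Col1a2 followed the same order, at 3629 and 4036 CPM in CD45- and 153 and 474 CPM in CD45+. Its log2 ratio was -4.56 in batch 1 and -3.09 in batch 2, and -5.19 and -5.39 without replicates 5 and 18. Col3a1 was at 4362 and 3948 CPM in CD45- and at 309 and 726 CPM in CD45+, with ratios of -3.81 and -2.44. Replicate 91 of batch 1 held 57.4% of the Col3a1 reads of its CD45+ plate and replicate 18 of batch 2 held 96.6%, and without them the ratios were -4.99 and -7.19. For each of the 3 major chains, the level of the CD45+ plates was therefore set by 1 or a few wells, while in the CD45- plates 7 to 9 wells shared the upper part of the reads (the fewest wells that held 50% of them).

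The sum of these 3 chains showed how much of a cell's output they took. It was a median of 0.508% and 0.151% of a CD45- well's reads, and reached 7.88% in replicate 4 of batch 1 and 10.0% in replicate 9 of batch 2. Among CD45+ wells the medians were 0.00276% and 0.00517% and the maxima 1.43% and 4.81%. The CD45- cells spread over a wide range: 30 and 28 wells were above 1%, and 22 and 36 wells were below 0.1%.

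Of the 10 members, 4 had a promoter in the RefSeq table of GRCm38.p6: Col1a2, Col3a1, Col5a1 and Serpinh1. The 250 bases before the annotated starts of Col1a2 (chr6:4505368-4505617, plus strand) and Col3a1 (chr1:45311288-45311537, plus strand) are shown because the levels of these chains were correlated over wells (rho 0.85 and 0.89 in the 2 batches of the CD45- gate). Capitals mark the letters of 3 common promoter motifs, searched on both strands: the CCAAT box, the TATA box (as TATAAA) and the GC box (as GGGCGG).
Col1a2: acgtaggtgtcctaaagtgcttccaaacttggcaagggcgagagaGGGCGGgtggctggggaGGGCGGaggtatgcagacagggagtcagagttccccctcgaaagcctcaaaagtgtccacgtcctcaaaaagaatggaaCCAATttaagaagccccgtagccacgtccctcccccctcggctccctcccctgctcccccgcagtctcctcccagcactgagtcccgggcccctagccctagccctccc
Col3a1: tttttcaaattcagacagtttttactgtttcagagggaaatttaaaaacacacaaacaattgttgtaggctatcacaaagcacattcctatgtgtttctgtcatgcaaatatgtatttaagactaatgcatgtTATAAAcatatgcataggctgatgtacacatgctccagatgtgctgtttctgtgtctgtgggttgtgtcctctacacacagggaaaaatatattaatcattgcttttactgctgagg
The Col1a2 window held GGGCGG at -205 and -188 and CCAAT at -109 from the start, and the Col3a1 window held TATAAA at -117. Of 32851 promoters of this length, 32.7% held GGGCGG, 33.8% CCAAT and 12.4% TATAAA on either strand. The Col1a2 window was 62% G and C and the Col3a1 window 35.2%, on either side of the median of 52.4%. These 2 windows shared none of the 3 motifs. The windows of Col5a1 and Serpinh1, not shown, also held GGGCGG. In the GENCODE annotation of GRCm38, Col1a2 begins at chr6:4504814, upstream of its window, so the window does not precede every annotated start. The deposited tables name no genome build, and a match describes letters only.

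The minor chains of type V collagen differed from the major ones and from each other. Col5a2 stood at 446 and 485 CPM in CD45- and at 35.7 and 59.1 CPM in CD45+, with log2 ratios of -3.61 and -3.02. Of the CD45+ Col5a2 reads, 95.4% lay in replicate 91 of batch 1 and 96.7% in replicate 18 of batch 2, without which the ratios were -7.37 and -7.32. Col5a1 was at 263 CPM in batch 1 and 103 CPM in batch 2 of the CD45- gate and was at 8.58 and 44.1 CPM in the CD45+ gate. Its ratios of -4.79 and -1.21 therefore missed the 4-fold mark in batch 2. Without replicate 18, which held 95.7% of the Col5a1 reads of its plate, the batch 2 ratio was -5.13 and Col5a1 joined the genes higher in CD45-. In batch 1, 99.1% of the CD45+ Col5a1 reads came from replicate 82. At least 100 CPM of Col5a2 was found in 31 and 27 CD45- wells, and of Col5a1 in 24 and 15.

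Serpinh1, whose product escorts procollagen out of the endoplasmic reticulum, was at 579 and 2319 CPM in CD45- against 75.8 and 133 CPM in CD45+. Its log2 ratios were -2.92 and -4.11, and -3.97 and -5.50 without replicate 82 of batch 1 and replicate 18 of batch 2. It was the member that differed most between the batches of the CD45- gate, 2.00 higher in batch 2 on the log2 scale, where Col5a1 was 1.34 lower (log2 change -1.34) and the other 8 members lay between -0.34 and 0.30. Between these plates 28.7% of all genes tested were at least 2-fold higher in batch 2 and 18.2% at least 2-fold higher in batch 1. The median CD45- well held 290 CPM of Serpinh1 in batch 1 and 1391 CPM in batch 2, and 53 of 79 and 75 of 82 wells reached 100 CPM.

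Plod2 was at 72 and 56.5 CPM in CD45- and 27.3 and 22.4 CPM in CD45+. The ratios of -1.37 and -1.29 did not reach 4-fold, and the median CD45- well had 1.13 CPM in batch 1 and 0 in batch 2. Its reads came from few cells: 7 and 6 CD45- wells reached 100 CPM, and 1 well of each CD45- plate held 32.7% and 37.7% of the reads. Of its CD45+ reads, replicate 5 of batch 1 held 98.3% and replicate 18 of batch 2 held 90.05%, and without them the ratios were -5.63 and -4.11. Without replicate 16 of the CD45- plate, the batch 2 ratio was -0.65.

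Lox, Loxl1 and Loxl2, which encode secreted cross-linking enzymes, were each present at a high level in about 1 CD45- well in 5. Lox was at 209 and 166 CPM in CD45- and 29.3 and 16.4 CPM in CD45+, with ratios of -2.79 and -3.26. Loxl1 was at 252 and 272 CPM against 15.3 and 26.7 CPM, with ratios of -3.96 and -3.30. Loxl2 was at 212 and 172 CPM against 12 and 0.142 CPM, with ratios of -4.03 and -7.25. All 3 were thus higher in CD45- in both batches. Between 15 and 19 CD45- wells of a plate reached 100 CPM of any 1 of them, and the median wells held 5.66 to 15.3 CPM. Among CD45+ wells, a single one held 89.7% (replicate 5) and 84% (replicate 18) of the Lox reads and 74.7% (replicate 91) and 94.2% (replicate 18) of the Loxl1 reads. Without those wells the ratios were -5.68 and -5.48 for Lox and -5.66 and -6.70 for Loxl1, and -6.09 for Loxl2 in batch 1 without replicate 5.

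Levels of different genes were set side by side only per kilobase of the longest principal transcript, in CPM per kb of summed CD45- reads. Col1a1 came first at 828 and 1019, then Col3a1 at 784 and 710 and Col1a2 at 679 and 755, whose ranges over the batches overlapped. Serpinh1 ranged from 255 to 1020 between batches and overlapped all 3. Loxl1 followed at 76.3 and 82.6, Col5a2 at 67.3 and 73.2, Lox at 44.1 and 35.1 and Loxl2 at 39.9 and 32.4, the last pair again overlapping. Col5a1 at 31.3 and 12.3 overlapped Plod2 at 19.7 and 15.5. Where along the transcripts the reads lay was not tested.

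The number of members present in a well differed between the gates at equal depth, with overlap. After each well was thinned to 50000 reads, CD45- wells held a read of a median of 7 and 6.5 of the 10 genes and CD45+ wells of 2 and 2. The ranges were 4 to 10 in both CD45- plates and 0 to 8 and 0 to 9 in the CD45+ plates, and CD45- wells also had more genes detected overall (medians of 3978 and 3896 against 2724 and 2780, unthinned). At 100 CPM without thinning the medians were 5 and 4 against 0 and 0, and no well reached 100 CPM of all 10. A read of all of Col1a1, Col1a2 and Col3a1 was found after thinning in 78 of 79 and 81 of 82 CD45- wells (98.7% and 98.8%), and in 9 of 76 and 28 of 78 CD45+ wells. The CD45+ shares were 11.8% (exact Clopper-Pearson 95% interval 5.56% to 21.3%) and 35.9% (25.3% to 47.6%). Such an interval treats the wells of a plate as independent draws and covers no difference between plates. In both gates these shares include wells with no more reads than shallow wells held, which in CD45- had Col1a1 and Col1a2 reads in 17 of 17 and 14 of 14 wells and Col3a1 reads in 17 and 13. At 100 CPM the shares with all 3 were 84.8% and 74.4% in CD45- and 5.26% and 8.97% in CD45+.

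Within the CD45- plates, the levels of the 3 major chains correlated strongly over wells and those of the enzymes less so. Spearman's rho of CPM between Col1a1 and Col1a2 was 0.85 over 79 wells of batch 1 and 0.92 over 82 wells of batch 2, and between Col1a1 and Col3a1 0.86 and 0.87. Col5a2 came next, at 0.77 and 0.76 with Col1a1. Col5a1 had 0.48 and 0.48, and the type V chains correlated with each other at 0.29 and 0.48. The median CD45- well held only 5 and 1 reads of Col5a1, so its lower values cannot be told apart from an effect of few reads. These correlations describe wells that share a plate, and Col1a1 correlated with the reads per well at 0.11 and 0.19. They also pool the kinds of wells grouped below, with Col1a1 at 12569 and 16532 CPM in fibroblast-like and 284 and 220 CPM in endothelial-like wells. Correlation within a kind of well was not tested.

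The rho of the enzymes with Col1a1 was lower, but counts of Plod2 and of the lysyl oxidases were low. The median CD45- well held 1 and 0 reads of Plod2 and 2 and 1.5 of Lox. It held 4 and 3 of Loxl1 and 3 and 2 of Loxl2. Weak correlation of these genes cannot be told apart from an effect of few reads. Serpinh1 had rho of 0.61 and 0.60 with Col1a1, Loxl1 0.42 and 0.53, Lox 0.40 and 0.42, Loxl2 0.14 and 0.28 and Plod2 0.17 and 0.15. Among the lysyl oxidases themselves the values were -0.02 to 0.34, with the same limit of few reads. At 100 CPM, Lox and Loxl1 met in 5 wells of batch 1 (of 15 with each gene) and in 4 of batch 2 (of 17 with Lox and 16 with Loxl1). Over all deep CD45- wells, 19% of batch 1 and 19.5% of batch 2 reached that level of Loxl1. By contrast, each well that reached 100 CPM of Lox, Loxl1 or Loxl2 also reached 100 CPM of Col1a1, 15, 15 and 19 wells in batch 1 and 17, 16 and 16 in batch 2. Since 73 of 79 and 76 of 82 wells did so anyway, little can be read from that overlap. Acta2, the smooth muscle actin of myofibroblasts, had rho of 0.03 and 0.40 with Col1a1, and Pdgfrb 0.31 and 0.38.

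**Figure D2:**
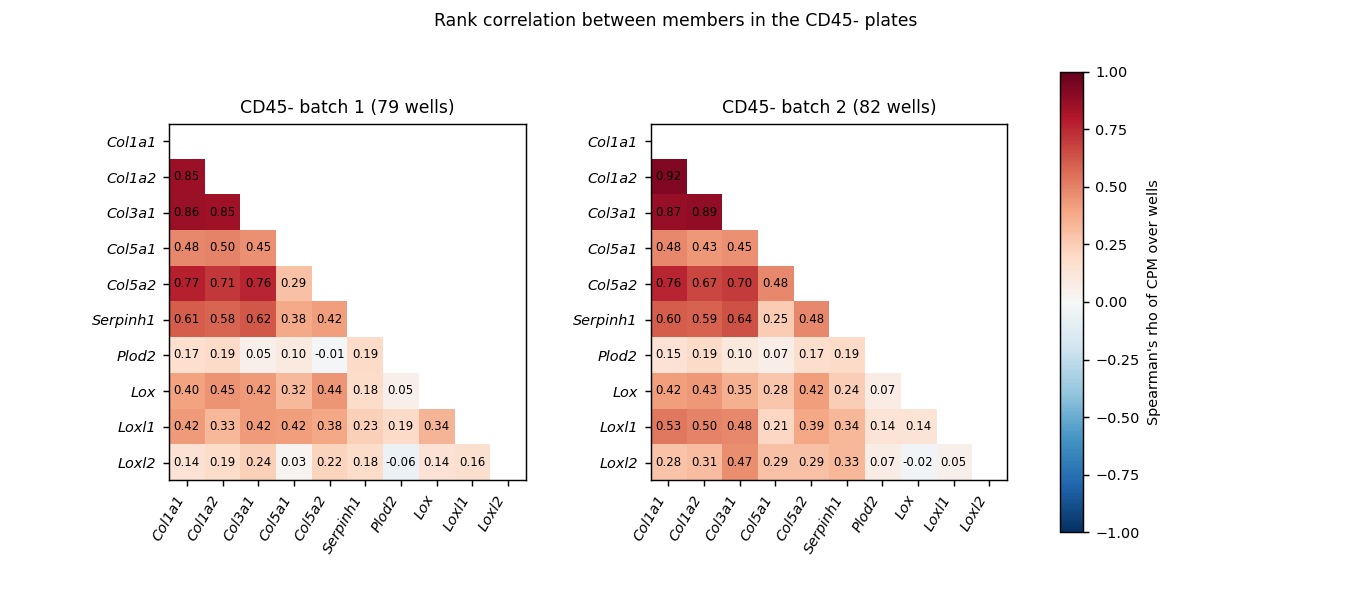
Spearman's rho of CPM between members over the CD45- wells of batch 1 (left) and batch 2 (right), 1 cell per pair of genes. The block of Col1a1, Col1a2 and Col3a1 lies at 0.85 to 0.92, Col5a2 at 0.67 to 0.77 with them, and Plod2 at -0.01 to 0.19 with every member but Loxl2 in batch 1 (-0.06).

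The type I chains kept a similar balance over most CD45- wells above 1000 CPM of the pair. In wells with at least 20 reads of the pair, the median log2 ratio of Col1a1 to Col1a2 reads was 0.37 over 79 wells of batch 1 and 0.71 over 81 wells of batch 2, with interquartile ranges of 0.86 and 0.84. Only 2 of 79 and 1 of 81 wells had the chains 16-fold or more apart. In these, replicate 28 of batch 1 had 1692 Col1a1 reads and 21 Col1a2 reads, replicate 68 had 11 and 548, and replicate 52 of batch 2 had 469 and 8. Above 1000 CPM of the pair the counts were 2 of 52 and 1 of 42. The median log2 ratios there were 0.40 and 0.74, with quartiles of -0.14 and 0.78 in batch 1 and 0.21 and 1.02 in batch 2. Between 100 and 1000 CPM the wells held a median of only 112 and 85 reads of the pair, a number that shallow wells of their plates reached, so nothing is read from their balance. The ratio of Col3a1 to Col1a1 was -0.09 and -0.63 at the median, with 2 of 79 and 0 of 82 wells 16-fold or more apart.

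**Figure D3:**
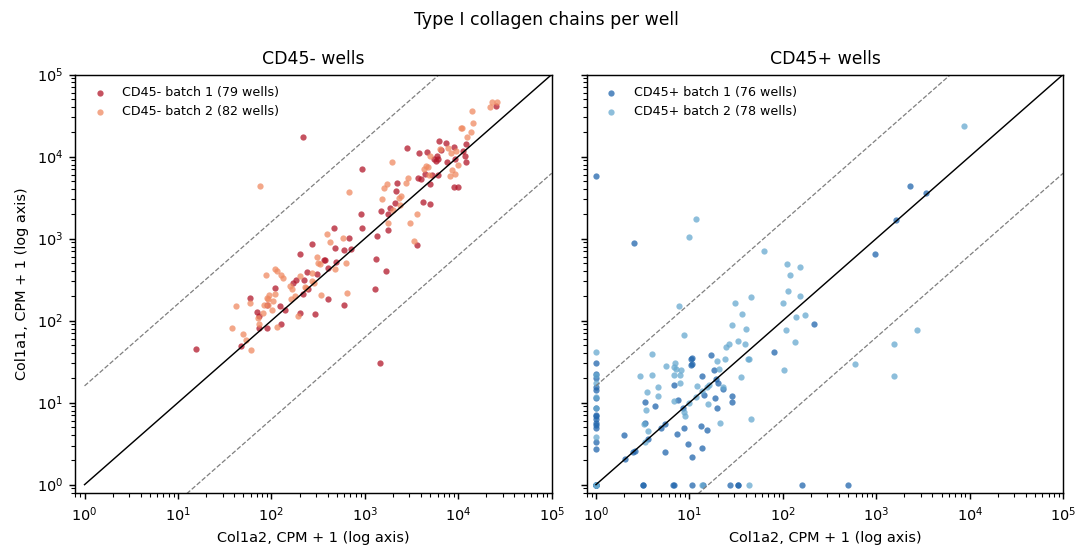
Col1a1 against Col1a2 in each well (CPM + 1, log axes), CD45- plates left and CD45+ plates right; the solid line marks equal levels and the dashed lines 16-fold. CD45- wells above 1000 CPM of the pair lie between the dashed lines apart from 3 wells, and nothing is read from the balance below that level. Several CD45+ wells above 1000 CPM of 1 chain have hardly any of the other.

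The type V chains did not keep such a balance. Of CD45- wells with at least 20 reads of the pair, 21 of 44 and 14 of 29 had Col5a2 and Col5a1 16-fold or more apart. Above 1000 CPM of a pair, 13 of 22 and 4 of 15 wells were that far apart for type V, against 2 of 52 and 1 of 42 for type I. The pairs were not matched in reads there, with medians of 674 and 900 for type V against 3141 and 5125.5 for type I. Whether fewer reads alone set such wells apart was not tested. In batch 1 the wells went both ways, replicate 76 with 1163 Col5a2 reads and 2 of Col5a1, replicate 80 with 3 and 308. In batch 2 all 14 had Col5a2 higher, for example 1112 reads against 0 in replicate 42. In the GENCODE annotation of GRCm38, Col5a2 (chr1:45374321-45503282, minus strand) lies next to Col3a1 (chr1:45311538-45349706, plus strand), and Col5a1 lies on chromosome 2.

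In CD45+ wells the type I chains were often apart. Wells with at least 20 reads of the pair were few, 8 and 30, and 4 and 7 of them had the chains 16-fold or more apart. Replicate 52 of batch 1 had 546 reads of Col1a1 and 0 of Col1a2 and of Col3a1, and replicate 71 had 564, 1 and 3. In batch 2, replicate 51 had 887 reads of Col1a2 and 29 of Col1a1, replicate 45 had 538 and 7, and replicate 12 had 2 and 327. These reads of 1 chain exceeded the highest shallow well of the plate, which had 22 and 41 reads of Col1a1 and 7 and 19 of Col1a2 in batches 1 and 2, while the reads of the other type I chain did not. Among wells of at least 1000 CPM of the pair, 1 of 5 and 5 of 6 CD45+ wells were 16-fold or more apart against 2 of 52 and 1 of 42 CD45- wells.

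At least 100 CPM of all of Col1a1, Col1a2 and Col3a1 was reached by 4 CD45+ wells of batch 1 and 7 of batch 2. The 4 of batch 1 (replicates 76, 5, 91 and 82) held the 3 chains at 1.43%, 0.828%, 0.711% and 0.445% of their reads. Each was a different mixture. Replicate 76 had Col3a1 at 7237 CPM with Dcn (decorin, a fibroblast proteoglycan) at 1557 CPM and no Lox, Loxl1, Loxl2 or Plod2 read. Replicate 5 had Plod2 at 1072 CPM, Lox at 1046 CPM, Loxl2 at 397 CPM and Acta2 at 5269 CPM. Replicate 91 had Col3a1 at 5495 CPM, Col5a2 at 1052 CPM and Loxl1 at 353 CPM, with Col5a1 at 0. Replicate 82 had Serpinh1 at 2235 CPM and Col5a1 at 470 CPM with Acta2 at 2.12 CPM.

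The leukocyte list was low for its plate in these 4 wells. The list of 8 leukocyte genes summed to 655 to 807 CPM in them, while the plate's median well held 32971 CPM and its lowest, replicate 76, 655 CPM. Ptprc had 2 to 6 reads and Pdgfrb 0 in each. The list of 10 macrophage genes summed to 466 to 639 CPM in replicates 5, 82 and 91, against a plate median of 15632 CPM. Replicate 76 differed from them, with 758 reads of Aif1 (3907 CPM, above the plate's median of 1563 CPM) and a macrophage list at 4289 CPM. With these 4 wells and replicate 18 of batch 2 left out, the members' median log2 ratio was -6.65 and -5.97. The wells were picked for their collagen reads, so this shift is set by the choice and describes only how much of the CD45+ level they held.

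Replicate 18 of batch 2, the deepest well of the series at 1246070 reads, differed from these. It held Col1a1 at 23586 CPM, Col3a1 at 15872 CPM, Col1a2 at 8670 CPM, Serpinh1 at 1932 CPM, Col5a2 at 1293 CPM, Col5a1 at 955 CPM, Loxl1 at 569 CPM, Plod2 at 457 CPM and Lox at 312 CPM, and no Loxl2 read. Dcn was at 7867 CPM beside leukocyte and macrophage lists at 11434 and 8436 CPM, and 5 of 8 fibroblast, 5 of 8 leukocyte and 7 of 10 macrophage genes reached 100 CPM. Ptprc had 1 read and Pdgfrb 0. Whether more than 1 cell was in this well was not tested, and no doublet caller was run.

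The other 6 wells of batch 2 (replicates 1, 79, 67, 83, 14 and 85) held the 3 chains at 0.0400% to 0.0823% of reads. Col1a1 had 8 to 49 reads in them, beside 1 to 41 in shallow wells of the same plate, and leukocyte lists at 17594 to 46489 CPM were of the plate's usual size. No well of these 6 exceeded the shallow wells in all 3 chains, but replicate 79 did so in Col1a2 (21 reads against 19) and Col3a1 (63 against 31), and replicates 1 and 67 in Col1a1 (49 and 47 against 41). Lox had 0 to 2 reads in each of the 6. Replicate 1 had 11 Loxl1 reads (109 CPM) and 9 Serpinh1 reads, beside at most 2 and 4 in shallow wells. Replicate 67 had 5 Serpinh1 reads.

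**Figure D4:**
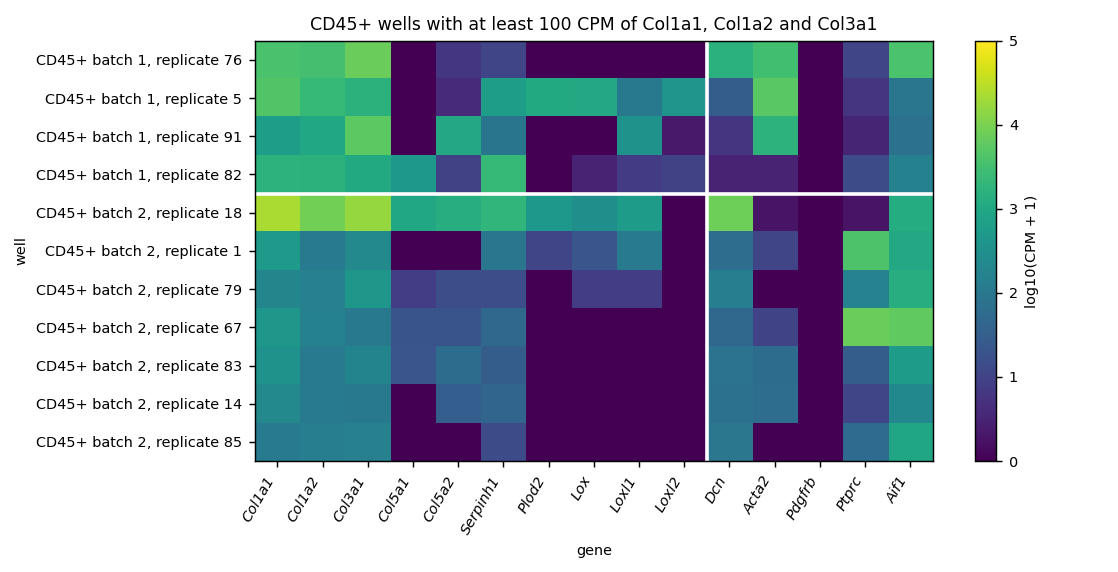
Levels, as log10(CPM + 1), of the 10 members and of Dcn, Acta2, Pdgfrb, Ptprc and Aif1 (a macrophage gene) in the 11 CD45+ wells with at least 100 CPM of Col1a1, Col1a2 and Col3a1, ordered within a batch by the share of the 3 chains. The batch 1 wells and replicate 18 carry chaperone and enzyme genes in different combinations (few in replicate 76) with little Ptprc. The other 6 wells of batch 2 carry low chains with Aif1 and few enzyme reads, though replicate 1 had Loxl1 at 109 CPM.

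Wells were grouped by Leiden clustering in which the 10 members and 34 further collagen pathway genes took no part, so that levels could be set beside kinds of cells. Of the CD45- wells, 29 formed a fibroblast-like cluster (15 and 14 by batch) and 50 an endothelial-like one (24 and 26). Another 53 (29 and 24) formed a cluster led by Nkd2, Alx1, Frzb, Pla1a and Hsd11b1, which detected 3 smooth muscle markers and was not named because no marker of a class was among its 10 leading genes, and 15 (8 and 7) an unnamed cluster led by Higd1b, Ren1 and Akr1b7; 3 and 10 wells fell in a last unnamed cluster led by Sostdc1 and Car2. The other named clusters were macrophage-like and leukocyte-like, with 74 and 59 of the CD45+ wells.

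The 3 major chains were highest in the fibroblast-like wells and next in the Nkd2-led wells. Col1a1 was at 12569 and 16532 CPM in fibroblast-like wells, with no well below 1976 CPM, and at 4919 and 5091 CPM in the Nkd2-led wells, which ran from 108 to 36049 CPM. It was at 284 and 220 CPM in endothelial-like wells and at 228 and 219 CPM in the Ren1-containing cluster. Col5a2 was at 683 and 1223 CPM in fibroblast-like wells and at 690 and 499 CPM in Nkd2-led wells. By summed reads these clusters were thus nearly equal in batch 1. The median Col5a2 well was higher in the fibroblast-like cluster in both batches, at 451 and 1163 against 157 and 372 CPM. By reads, 3 of 24 and 2 of 26 endothelial-like wells exceeded the highest shallow well of their plate in Col1a1, and none did so in all 3 chains, so most of that cluster lay within what shallow wells held. All 3 chains exceeded it in 14 of 15 and 14 of 14 fibroblast-like wells and in 22 of 29 and 21 of 24 Nkd2-led wells. Together the fibroblast-like and Nkd2-led wells held 56.2% and 42% of the Col1a1 reads of the CD45- plate in batch 1 and 66.3% and 30.6% in batch 2.

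By summed reads, Loxl1 and Plod2 had the order of the major chains between these clusters, Lox had it in batch 2, and Loxl2 had the reverse order. Loxl2 was higher in the Nkd2-led wells, at 425 and 357 CPM, than in fibroblast-like wells, at 117 and 164 CPM, and reached 100 CPM in 12 of 29 and 12 of 24 against 2 of 15 and 4 of 14 wells. Without the well with most of its reads, the fibroblast-like level was 63.2 and 74.4 CPM. Loxl1 had the opposite order by summed reads, at 264 and 318 CPM against 622 and 635 CPM. Its median well did not, at 23.7 and 33.5 CPM against 16 and 21.9 CPM. Loxl1 reached 100 CPM in 9 of 29 and 10 of 24 against 6 of 15 and 6 of 14 wells. By summed reads Plod2 was also lower in the Nkd2-led wells, at 55.7 and 35.8 against 194 and 174 CPM. Plod2 rested on single wells: without the top well of each group it was at 15.8 and 11.9 against 101.4 and 92.3 CPM. Lox was alike in batch 1, at 324 and 318 CPM, and lower in the Nkd2-led wells of batch 2, at 92.9 against 445 CPM. Ranges of single wells overlapped between the clusters for each of these genes, and the median well held far less than the summed level, for example 4.26 CPM of Loxl2 in fibroblast-like wells of batch 1. The split itself depends on the clustering: at resolution 0.5, 44 and 40 CD45- wells formed a single fibroblast-like cluster with Loxl2 at 319 and 275 CPM, and there the contrast cannot be made.

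Serpinh1 was nearly equal in the Nkd2-led and fibroblast-like wells, at 819 and 803 CPM in batch 1 and 3637 and 2920 CPM in batch 2. It was at 168 and 747 CPM in endothelial-like wells and 268 and 1078 CPM in the Ren1-containing cluster. The higher batch 2 level was thus seen in each of these 4 groups of cells. In batch 1 replicate 47 held 516 of the 591 Serpinh1 reads of the Ren1-containing cluster. Without the well with most of its reads in each batch, that cluster stood at 41.8 and 973 CPM. Of the endothelial-like wells, 19 of 24 and 17 of 26 had more Serpinh1 reads than any shallow well of their plate, unlike their collagen reads. In the Ren1-containing cluster, Col1a2 was at 795 CPM against 228 CPM of Col1a1 in batch 1, and Col5a1 was at 331 CPM there with 2 of 8 wells at 100 CPM, while in batch 2 these stood at 242, 219 and 1.50 CPM.

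**Figure D5:**
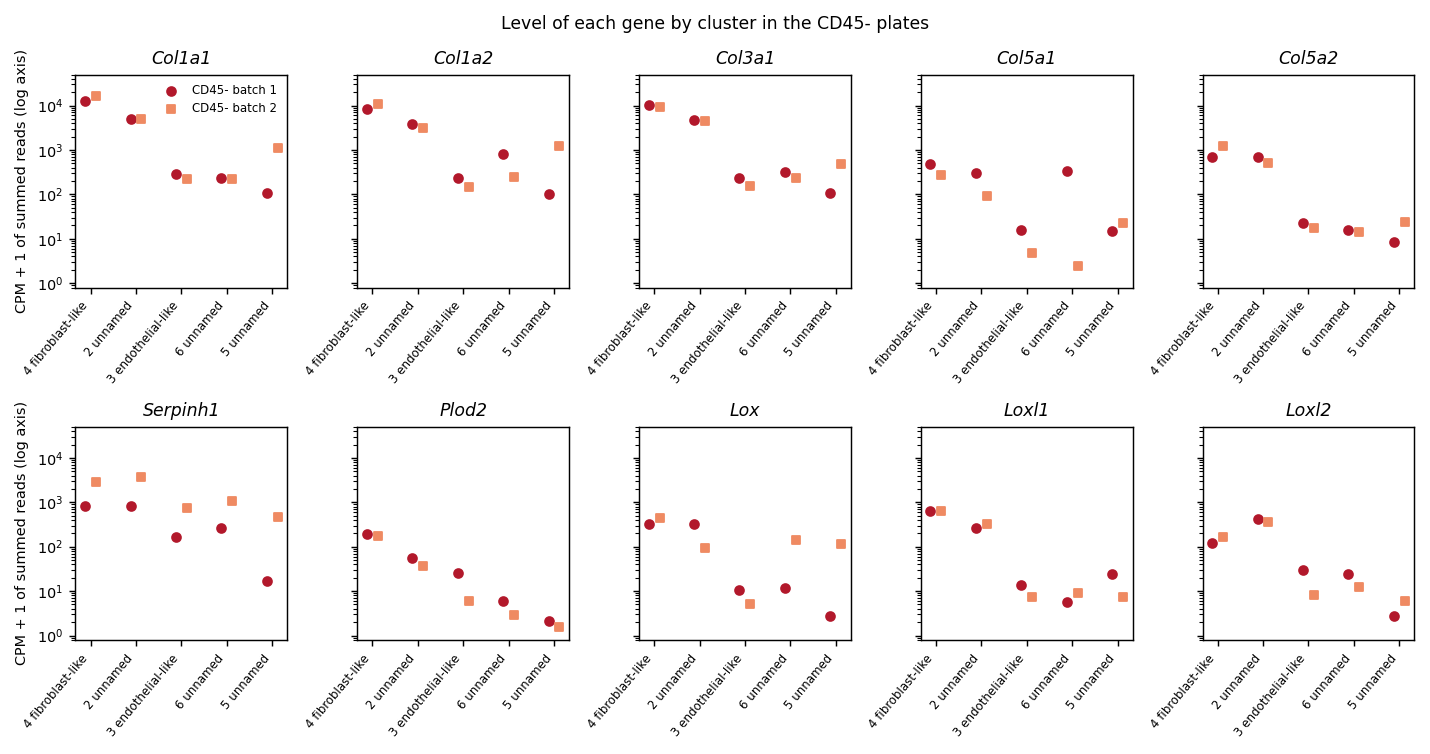
Level of each gene (CPM + 1 of summed reads, log axis) by cluster in the CD45- plates, circles batch 1 and squares batch 2. Col1a1, Col1a2 and Col3a1 are highest in the fibroblast-like cluster, lower in cluster 2 (the Nkd2-led wells) and lower again in the endothelial-like cluster, in cluster 6 (the Ren1-containing wells) and in cluster 5 (the Sostdc1-led wells), Loxl2 is highest in cluster 2, and Serpinh1 is higher in batch 2 in each cluster shown.

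Further genes of collagen synthesis also lay mostly below 0 (29 and 28 of 30 in the 2 batches, beside the 59.8% and 63.1% of all genes tested). Of 34 further genes for prolyl and lysyl hydroxylation, folding, propeptide cleavage, cross-linking, export and minor fibrillar chains, 30 were tested, 13 were higher in CD45- (beside 13% of all genes tested), none in CD45+ and 17 in neither. Their median log2 ratios were -3.75 and -2.41. Of the 8 most abundant, Sparc (a collagen-binding matrix protein) was at 16803 and 14997 CPM in CD45- with ratios of -3.22 and -2.77, and Pcolce (an enhancer of propeptide cleavage) at 1455 and 2289 CPM with -4.80 and -3.73. Fkbp10, a collagen chaperone, was at 120 and 263 CPM with -3.82 and -2.20, and P4ha2, a prolyl hydroxylase subunit, at 55 and 150 CPM with -5.70 and -2.49. The other 4 did not reach 4-fold in both batches: P4hb, the shared prolyl hydroxylase subunit and disulfide isomerase, had ratios of -0.56 and -1.59, Adamts2, a propeptidase, -1.64 and -3.46, Mia3, a procollagen export receptor, -4.48 and -1.66, and Plod3, a lysyl hydroxylase, -0.12 and -1.95.

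Some of these calls rested on 1 well. Leaving out 1 CD45- well ended the call of Col5a3, Fkbp14, Loxl4, P4ha3 and Pcolce2, 5 of the 13. Leaving out 1 CD45+ well brought 8 others to 4-fold in both batches, among them Adamts2 (batch 1 ratio -2.55 without replicate 5 and -2.27 without replicate 91) and Mia3 (batch 2 ratio -5.55 without replicate 44). Among the named genes, single CD45+ wells also moved Sparc to -4.26, Pcolce to -5.49 and Fkbp10 to -4.07 in batch 2 without replicate 18, Pcolce to -5.43 in batch 1 without replicate 91, Fkbp10 to -6.02 in batch 1 without replicate 5, P4ha2 in batch 2 to -3.33 without replicate 19 and -3.44 without replicate 22, P4hb in batch 1 to -1.31 without replicate 71, and Plod3 to -1.52 without replicate 82 and -6.02 without replicate 70.

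Outside these lists, the genes whose level over CD45- wells most resembled the sum of Col1a1, Col1a2 and Col3a1 were ranked by the lower of the 2 batches' Spearman's rho, among 4634 genes. Bgn (biglycan, a small matrix proteoglycan) came first at 0.86, then Mgp at 0.73, Serping1 at 0.68, Lgals1 at 0.64, Fn1 (fibronectin) at 0.63, Cd63 and Fstl1 at 0.62, Tmsb10 at 0.61 and Dcn at 0.60. The median gene had -0.05 and the 95th percentile was 0.20, over 79 and 82 wells. These values pool wells of all clusters, and likeness within a cluster was not tested. On the same measure Col5a2 reached 0.74 and Serpinh1 0.62. Loxl2 at 0.17 and Plod2 at 0.13, both with few reads in the median well, lay below that percentile. Of these genes, Mgp, Cd63 and Tmsb10 were not 4-fold higher in CD45- in both batches, and Mgp reached 2886 CPM among CD45+ wells of batch 1.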

How the data were processed

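The authors deposited a table of raw counts for each batch, 1 column a well; the values are whole numbers whose totals differ between wells. Libraries were made with a Clontech SMARTer kit, per the labels' protocols. STAR (listed as 3.0.4), Subread and featureCounts 1.4.5 were used, per the submitters' processing notes; which genome build they used is not given in the sources used here, and unique molecular identifiers are not stated. Repeated lines (598 of 41192 and 595 of 41228, 2.39% and 2.42% of reads) held identical counts and were dropped. All 10 symbols matched the reference name table.

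Computed here: CPM per well and of summed reads per plate for wells of at least 50000 reads; log2 ratios with a pseudocount of 1 CPM; a call at 4-fold in both batches; chain ratios with 0.5 added to each count, for pairs of at least 20 reads; thinning to 50000 reads (seed 1); exact Clopper-Pearson intervals. Clustering used scanpy 1.11.5 with leidenalg 0.10.2 (2000 variable genes, 20 components, 15 neighbours, resolution 1). A cluster was named with at least 3 detected markers of a class and at least 1 marker among its 10 leading genes; the latter condition was set after seeing the clusters. TMM factors came from edgeR 4.0.16 in R 4.3.3. Ratios and calls were tried on simulated plates with known changes, whose wells shared 1 profile and differed only in depth and counting error. That run does not cover plates where 1 well held most reads of a gene. No p-value was computed. Named genes were the 10 members, the 8 most abundant pathway genes of the CD45- plates and the 10 genes most like the major chains among those with a read in at least 20% of CD45- wells; 1 of the last is not reported here. Other pathway genes are named where 1 well decided a call. Members and lists were chosen with earlier results of these data known.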

Additional observations from a re-analysis of the deposited data

Results flagged for a closer look

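Wells under 50000 reads entered no comparison, yet collagen reads were found in them. In the CD45+ plates, 20 such wells of batch 1 held 142 CPM of Col1a1, 53.3 CPM of Col1a2 and 175 CPM of Col3a1, and 18 of batch 2 held 594, 239 and 352 CPM. Each value was above the level that 3 reads would give. The median shallow well had 56.7 and 400 CPM of Col1a1, against 5.03 and 24.3 CPM in the median deep CD45+ well, though in reads both were few. Where these reads came from was not tested.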

How the results depend on the processing

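The count of 8 members higher in CD45- lay between 6 (TMM and median-of-ratios scaling) and 10 (without the CD45+ well with most reads of a gene in each batch, or without 5 CD45+ wells, an alternative chosen after seeing the data); both leave out wells for their reads of these genes, which by itself lowers the CD45+ level. Of 220 member ratios under 11 alternatives, 148 moved by less than 1.5 times, 72 by more and 0 changed sign. With a pseudocount of 10 CPM, 5 pathway genes and 364 of all genes were higher in CD45-, against 13 and 1667. Without the CD45+ well with most reads of each gene, these counts were 21 and 3444. The median log2 ratio of Col1a1 to Col1a2 in the CD45+ plate of batch 2 changed sign, from 0.94 to -1.42, when wells needed 100 reads of the pair. That of Col3a1 to Col1a1 there moved from -0.94 to -2.72 at 100 reads of the pair and to -0.42 at 20 reads of each, and in the CD45+ plate of batch 1, over 10 wells, from 1.72 to -1.01 at 100 reads of the pair. Wells with a read of all 3 major chains were 100% (unthinned), 89.9% (at least 3 reads), 84.8% (100 CPM) and 100% (thinned to 100000) of the CD45- plate of batch 1, against 98.7%, and 100%, 89% and 74.4% under the first 3 of these in batch 2, against 98.8%. In the CD45+ plates they were 52.6% (unthinned), 5.26% (100 CPM) and 26.6% (thinned to 100000) in batch 1, against 11.8%, and 79.5% (unthinned), 12.8% (at least 3 reads) and 8.97% (100 CPM) in batch 2, against 35.9%. At Leiden resolution 0.5, the 4 collagen-rich CD45+ wells of batch 1 again fell in a cluster mostly of CD45- wells, now a single fibroblast-like one, and 9 of the 10 genes most like the major chains were shared under each alternative measure. No paired analysis was possible because no result comes from a test; every ratio was taken between the plates of 1 batch, and well numbers only name wells.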

Other observations

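Serpinh1 is a heat-shock protein gene as well as a collagen chaperone gene, and its higher level in batch 2 of the CD45- gate was set beside 9 other heat-shock genes, chosen after its values were seen. On the log2 scale of CPM + 1, batch 2 over batch 1 in the CD45- plates, Hspb1 was at 1.93, Hspa1a at 1.74, Hsph1 at 1.70 and Hspa8 at 1.41. Hsp90aa1 was at 0.26, Dnajb1 and Hspd1 at 0.19, Hspe1 at -0.37 and Hspa1b at -1.84. In the CD45+ plates Serpinh1 was 0.81 higher in batch 2, Hspb1 1.74, Hspa8 1.38 and Hspa1a 4.46, while Hsph1 stood at -4.04. The genes did not move as 1 group, and whether their levels are tied to that of Serpinh1 was not tested.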
